A study of Mus musculus with 8 samples.

Results

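The genes of the proteasome were described here in mouse embryonic fibroblasts that express the adenoviral oncoprotein E1A and the activated Ras protein HRasV12. They were taken as every symbol in the count tables that begins with Psma, Psmb, Psmc, Psmd or Psme followed by a digit. This gave 44 of the 23420 gene symbols, of which 43 encode subunits, activators or assembly factors of the proteasome. The other one, Psmc3ip, encodes a protein that binds a proteasome ATPase and acts in meiotic recombination. It matched by name only and was kept apart. RNA-seq counts came from 4 libraries labelled Neat1 null (genotype Neat1-/-) and 4 labelled wild-type. Both groups carry E1A and HRasV12, have the strain background C57BL6/N and were grown in the same serum-containing medium. Neat1 is the noncoding RNA around which nuclear paraspeckles form, and the study's title describes it as induced by p53 and needed to suppress transformation. Whether separate embryos or cultures lie behind the libraries of 1 genotype is not in the labels, so p-values cover the spread of the libraries only, part of which may be technical.

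The proteasome degrades proteins that are tagged with ubiquitin. Its barrel-shaped core is built from outer rings of alpha subunits (Psma genes) and inner rings of beta subunits (Psmb genes), and 3 of the beta subunits, encoded by Psmb5, Psmb6 and Psmb7, cut the protein chain. In cells exposed to interferon gamma and in immune cells, Psmb8, Psmb9 and Psmb10 replace these subunits and form the immunoproteasome, which favours peptides for display to T cells. A cap of ATPases (Psmc genes) and other subunits (Psmd genes) binds ubiquitin, removes it and unfolds the protein, and activators (Psme genes) open the core without ubiquitin.

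Levels below are CPM, counts scaled to a library of 1e6 counts. Neat1 itself had 6.92, 11.3, 7.902 and 6.12 CPM in Neat1 null libraries, against 138, 588, 753 and 1319.6 CPM in wild-type libraries. The Neat1 null libraries held 19651035 to 38950207 counts assigned to genes and the wild-type libraries 31651625 to 37069334. Ribosomal protein genes took 25.4, 9.21, 15.04 and 8.42% of the counts in Neat1 null libraries 1 to 4, against 5.99% to 7.05% in the wild-type libraries. The factors that scale the library sizes (TMM) were 0.567, 1.05, 0.728 and 1.01 in Neat1 null libraries, against 1.08 to 1.33 in wild-type libraries. The slope of log2 CPM on log2 gene length was -0.314, 0.00725, -0.477 and -0.0533 in Neat1 null libraries, against 0.135 to 0.245 in wild-type libraries. The part of each of these in the results was not tested. Of the listed fibroblast markers, Vim had 2415 ± 657 CPM in Neat1 null and 1859.6 ± 428 CPM in wild-type libraries (mean ± SD, n = 4 each). The collagen gene Col1a1 was low in both groups, with 2.497 ± 2.17 CPM in Neat1 null and 5.47 ± 4.65 CPM in wild-type libraries. Col3a1 had 2.85 ± 3.43 CPM in Neat1 null and 3.22 ± 2.65 CPM in wild-type libraries. Col1a2 had 3.50 ± 3.53 CPM in Neat1 null and 21.8 ± 36.9 CPM in wild-type libraries, with 77.1 CPM in wild-type library 3. Col1a2 was not called (adjusted p = 0.214, edgeR). Of the 8 listed fibroblast markers 1 was called lower and 1 higher. Pdgfra fell, with 7.504 ± 2.91 CPM in Neat1 null and 89.95 ± 56.96 CPM in wild-type libraries (adjusted p = 0.00806, edgeR), a call lost without Neat1 null library 3 (0.0646). S100a4 rose, with 9.898 ± 12.8 CPM in Neat1 null and 2.32 ± 0.215 CPM in wild-type libraries (adjusted p = 0.0473), and had 0.61 in place of 2.08 on the log2 scale without Neat1 null library 1 (adjusted p = 0.353). Its call also ended without Neat1 null library 3 or any 1 wild-type library (0.0636 to 0.124). The 6 listed epithelial markers together had 251 to 3182 CPM in Neat1 null and 195 to 634 CPM in wild-type libraries, mostly from Krt18, which was highest in Neat1 null library 1 (3144 CPM). None of the 6 was called (0 by edgeR with 2 higher at an unadjusted p under 0.05, and 0 by DESeq2), and their part in the results was not tested. The 5 endothelial markers together had 0.359 to 2.604 CPM in Neat1 null and 4.97 to 44.3 CPM in wild-type libraries. In the wild-type libraries the sum came mostly from Emcn and Kdr. Emcn had 16.7 and 39.7 CPM in wild-type libraries 1 and 3, at most 0.0314 CPM in every other library, and was not tested. Kdr overlapped between the groups and was not called (adjusted p = 0.0736, edgeR). Of the 2 tested markers edgeR called 0 (1 lower at an unadjusted p under 0.05), and DESeq2 called 1 lower.

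Genes for the proteasome were mostly higher in Neat1 null libraries. Of the 44 genes, 42 passed the filter on low counts, and 22 of these rose at an adjusted p under 0.05 (edgeR quasi-likelihood test, adjusted over 13316 genes). Over all genes tested 9.97% were called higher, against 52.4% of these 42 genes, which include Psmc3ip. None was called lower (0 of 42, with 0 at an unadjusted p under 0.05 and 0 by DESeq2), against 7.72% of all genes. DESeq2 called 27 higher, where it called 14.8% of all genes higher and 11% lower. The median log2 fold change (Neat1 null minus wild-type) of the 41 tested genes other than Psmc3ip was 1.43, against -0.060 for all genes tested, and 39 of the 41 had a positive value. In 22 of the 41 genes every Neat1 null library lay above every wild-type library (53.7%), a pattern that 11.7% of all genes tested showed. The opposite pattern occurred in 0 of the 41, against 11% of all genes tested. Psmc3ip had 36.5 ± 12.9 CPM in Neat1 null and 24.9 ± 12.3 CPM in wild-type libraries and was not called (0.55, SE 0.400, adjusted p = 0.3298, edgeR).

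The calls depended on single libraries. With Neat1 null library 3, wild-type library 3 or wild-type library 4 left out, 0 of the 42 genes passed (edgeR), with 31, 24 and 24 at an unadjusted p under 0.05. In these 3 fits 13, 18 and 11 of all genes were called, and the median of the 41 proteasome genes was 1.41, 1.32 and 1.33. Leaving out Neat1 null library 1 gave a count of 13 and a median of 0.98, where 6.71% of all genes were called higher and 5.36% lower, and leaving out wild-type library 2 gave a count of 15, where 6.25% were called higher and 6.62% lower. Leaving out Neat1 null libraries 1 and 3 together gave 0 calls (20 at an unadjusted p under 0.05) and a median of 0.76, where 0.0355% of all genes were called higher and 0.0142% lower, with a median of -0.11. The shares of all genes at an unadjusted p under 0.05 in these fits are not given here. The counts of 31, 24, 24 and 20 therefore have no background at the same threshold. None of the 22 called genes changed sign in any of the fits run. In these bulk samples a different mix of cells and a different amount of RNA per cell cannot be told apart.

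**Figure D1:**
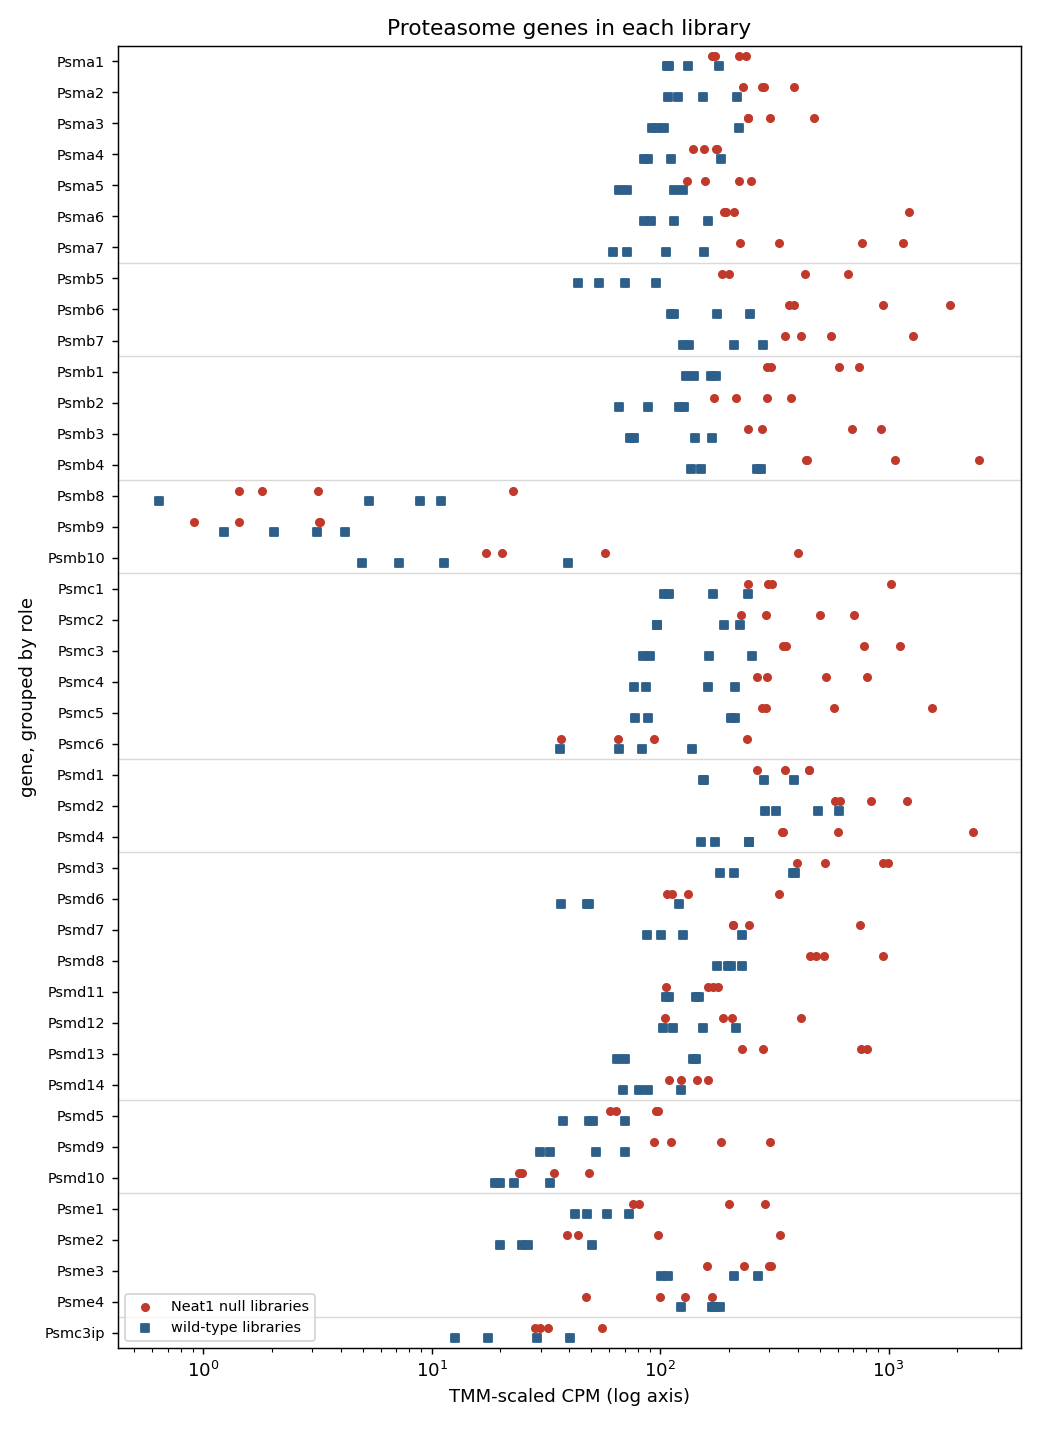
TMM-scaled CPM of the 42 tested genes on a log axis, with 1 point per library (4 Neat1 null and 4 wild-type), grouped by role. Psmb4 spans 136 to 2500.4 CPM with the Neat1 null libraries above, while Psmb8 and Psmb9 lie between 0.641 and 22.7 CPM with the groups mixed.

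**Figure D2:**
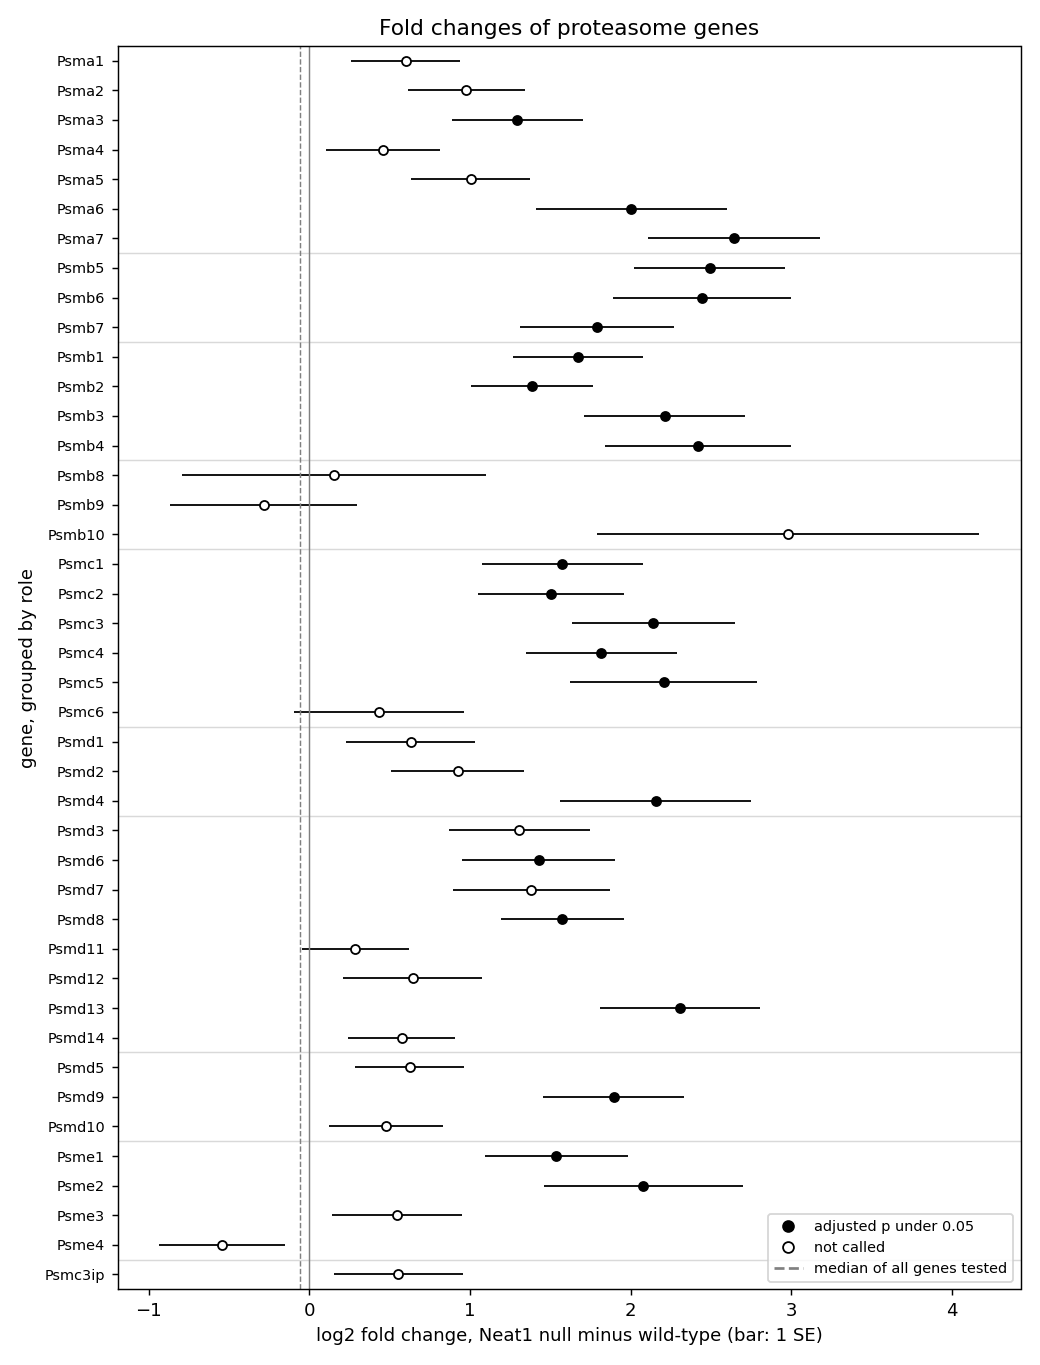
Log2 fold change of each tested gene, Neat1 null minus wild-type, with 1 SE (n = 4 each). Filled points are the 22 genes with an adjusted p under 0.05, and the dashed line is the median of all genes tested, -0.060.

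The alpha ring forms the gate of the core. Of its 7 tested genes 3 were called, all higher, and their log2 fold changes ran from 0.46 to 2.64 around a median of 1.003. Psma7 had 1155, 333, 766 and 223 CPM in Neat1 null libraries, against 156, 106, 71.6 and 62.4 CPM in wild-type libraries. The groups did not overlap, with libraries 1 and 3 highest among the Neat1 null libraries (log2 fold change 2.64, SE 0.53, adjusted p = 0.01802, edgeR). Psma4, the alpha subunit gene with the largest p, had 175, 177, 139 and 156 CPM in Neat1 null libraries, against 186, 112, 85.1 and 88.4 CPM in wild-type libraries. Wild-type library 1 held the highest of the 8 values, and the gene did not pass (0.46, SE 0.35, adjusted p = 0.361). Psma6 rose (2.004, SE 0.59, adjusted p = 0.0337), with 1229 CPM in Neat1 null library 1 against 190 to 211 CPM in the other Neat1 null libraries. Left without library 1 it had 0.81 (adjusted p = 0.106). Psma3 rose (1.29, SE 0.41, adjusted p = 0.0402) and had 1.04 without library 1 (adjusted p = 0.0741). Both calls also ended without wild-type library 2, at an adjusted p of 0.0624 for Psma6 and 0.0974 for Psma3. Psma1, Psma2 and Psma5 had log2 fold changes of 0.598, 0.98 and 1.003 that did not pass (adjusted p = 0.214, 0.0711 and 0.0688). All 3 calls were lost when Neat1 null library 3 was left out (adjusted p = 0.0646 to 0.0675), and likewise for wild-type library 3 (0.0655 to 0.135) and wild-type library 4 (0.0684 to 0.147). Psma8, the alpha subunit of testis, had 0 counts in all 8 libraries.

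All 7 beta ring genes that every cell uses rose. Psmb5, the chymotrypsin-like site, had 433, 200.1, 662 and 187 CPM in Neat1 null libraries, against 96.2, 69.9, 53.8 and 43.7 CPM in wild-type libraries (2.49, SE 0.47, adjusted p = 0.01802, edgeR). Psmb6, the caspase-like site, had 1858, 385, 948 and 366 CPM in Neat1 null libraries, against 249, 178, 115 and 112 CPM in wild-type libraries (2.44, SE 0.55, adjusted p = 0.0185). Psmb7, the trypsin-like site, had 1279, 412, 561 and 353 CPM in Neat1 null libraries, against 281, 211, 135 and 126 CPM in wild-type libraries (1.79, SE 0.48, adjusted p = 0.0245). In all 3 genes the groups did not overlap, Neat1 null libraries 2 and 4 lay closest to wild-type, and wild-type library 1 was the highest of its group. The other beta subunits do not cut the chain. Psmb3, the one with the smallest p, had 927, 279, 695 and 242 CPM in Neat1 null libraries, against 169, 142, 73.6 and 77.1 CPM in wild-type libraries (2.21, SE 0.50, adjusted p = 0.0185). Psmb2, the one with the largest p, had 294, 172, 373 and 216 CPM in Neat1 null libraries, against 128, 121, 65.997 and 88.7 CPM in wild-type libraries (1.39, SE 0.38, adjusted p = 0.02597). Neither gene overlapped between the groups. Psmb1 and Psmb4 had log2 fold changes of 1.67 (SE 0.41) and 2.42 (SE 0.58). The 7 calls held without Neat1 null library 1 or wild-type library 2. They were lost when Neat1 null library 3 was left out (adjusted p = 0.0646 to 0.0667), and likewise for wild-type library 3 (0.0607 to 0.101) and wild-type library 4 (0.0682 to 0.101). Of the 50-base stretches of Psmb5 transcripts 54.1% also occur in other annotated genes, among them Psmb5-ps and Gm3375, so part of its counts is uncertain. Psmb11, which replaces Psmb5 in the thymus, had 9, 0, 0 and 1 counts in Neat1 null libraries and 2, 1, 1 and 1 in wild-type libraries and was not tested.

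The immunoproteasome genes were not called in either direction (0 of 3 by edgeR, with 1 at an unadjusted p under 0.05, and 1 of 3 by DESeq2, which called Psmb10 higher). Psmb8, the counterpart of Psmb5, had 22.7, 1.44, 3.17 and 1.82 CPM in Neat1 null libraries, against 8.88, 0.641, 11 and 5.33 CPM in wild-type libraries. Neat1 null library 1 held the highest value and wild-type library 2 the lowest (0.15, SE 0.95, adjusted p = 0.919, edgeR). Psmb9, the counterpart of Psmb6, had 3.23, 0.909, 3.21 and 1.44 CPM in Neat1 null libraries, against 3.15, 1.24, 4.19 and 2.04 CPM in wild-type libraries. The groups overlapped over nearly their whole range (-0.29, SE 0.58, adjusted p = 0.745). Psmb10, the counterpart of Psmb7, had 402, 17.4, 57.2 and 20.4 CPM in Neat1 null libraries, against 39.4, 11.3, 7.201 and 4.94 CPM in wild-type libraries. It did not pass (2.98, SE 1.19, adjusted p = 0.113), Neat1 null library 1 stood far above the others, and wild-type library 1 lay above Neat1 null libraries 2 and 4. With Neat1 null library 1 left out Psmb10 had 1.02 (adjusted p = 0.256) and Psmb8 -1.59 (adjusted p = 0.139). Of 9 listed leukocyte markers Ptprc and Cd3e had 0 counts in all 8 libraries. Their summed level was 5.57 to 19.2 CPM in Neat1 null and 10.2 to 104 CPM in wild-type libraries, mostly from Cd68. Cd68 was called lower, with 3.68, 11.2, 18.3 and 15.7 CPM in Neat1 null libraries, against 8.88, 102, 68.2 and 92.4 CPM in wild-type libraries (-2.47, SE 0.64, adjusted p = 0.0239). Wild-type library 1 lay among the Neat1 null values, and the call ended without Neat1 null library 3 (0.0667), wild-type library 3 (0.0742) or wild-type library 4 (0.0819). The part of these markers in the results was not tested.

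Per kilobase of exon sequence the inducible subunits stood below the ones they replace. The length is that of all annotated exons of a gene joined, and it can exceed the length of the mRNA. It was 899 bases for Psmb5, 1872 for Psmb6 and 3421 for Psmb7. Psmb8, Psmb9 and Psmb10 had 3381, 3660 and 1705 bases. The percentages depend on these lengths, while the log2 ratios below do not use them. Psmb8 had 0.128% to 1.397% of the level of Psmb5 in Neat1 null libraries and 0.244% to 5.43% in wild-type libraries. Psmb9 had 0.08901% to 0.202% of the level of Psmb6 in Neat1 null libraries and 0.356% to 1.87% in wild-type libraries. Psmb10 had 8.45% to 63.02% of the level of Psmb7 in Neat1 null libraries and 7.86% to 28.1% in wild-type libraries. The log2 ratio of Psmb9 to Psmb6, computed per library as log2 of (CPM + 1) over (CPM + 1), was -8.78, -7.66, -7.82 and -7.23 in Neat1 null libraries, against -5.91, -6.32, -4.48 and -5.21 in wild-type libraries. The groups did not overlap, and the difference was -2.39 (2-sided exact permutation p = 0.0286, the smallest that 4 against 4 libraries can give, adjusted p = 0.0857 over the 3 ratios). The log2 ratio of Psmb8 to Psmb5 was -4.19, -6.37, -7.31 and -6.06 in Neat1 null libraries, against -3.299, -5.43, -2.19 and -2.82 in wild-type libraries. Here the groups overlapped, since Neat1 null library 1 lay above wild-type library 2 (difference -2.55, exact permutation p = 0.0571, adjusted 0.0857). The log2 ratio of Psmb10 to Psmb7 was -1.67, -4.49, -3.27 and -4.05 in Neat1 null libraries, against -2.803, -4.11, -4.05 and -4.42 in wild-type libraries, with overlap (difference 0.47, exact permutation p = 0.657, adjusted 0.657). None of the 3 differences was called, and a single ratio at the smallest possible p cannot pass after adjustment over 3.

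**Figure D3:**
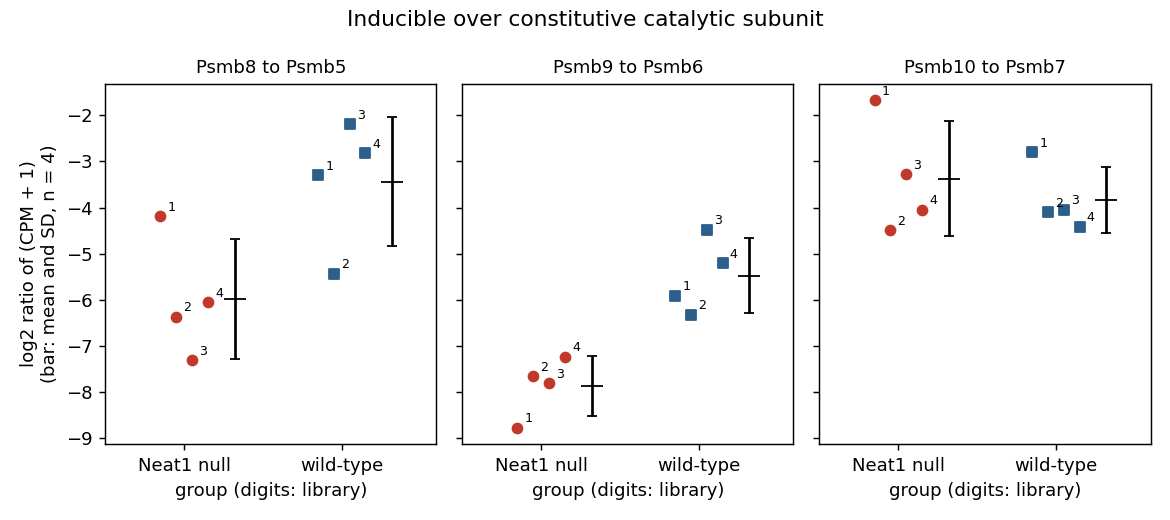
Log2 ratio of (CPM + 1) of each inducible catalytic subunit to the subunit it replaces, per library, with mean and SD (n = 4 each). For Psmb9 to Psmb6 all 4 Neat1 null libraries lie below all 4 wild-type libraries, while the groups overlap for the other two ratios.

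The RefSeq promoters of these genes are shown because Psmb5 and Psmb6 rose while Psmb8, Psmb9 and Psmb10 were not called by edgeR. Psmb10 nevertheless had the largest log2 fold change of the 5 (2.98, SE 1.19), and DESeq2 called it higher. Each promoter runs from 250 bases before to 50 bases after a RefSeq start of the gene (GRCm38.p6), 5′ to 3′ on the strand of the gene. In GENCODE M21 Psmb8 spans bases 34197721 to 34201454 and Psmb9 bases 34181987 to 34187764. The windows of these genes lie wholly inside those spans, so sequence before the outermost annotated start was not searched for them. Capitals mark TGACNNNGC, the type of sequence that Nfe2l1 and Nfe2l2 bind, or CCAAT, which the factor NF-Y binds, on either strand. An interferon response type (GAAA, then 2 bases, then GAAA) was searched as well and is in none of the 5. Psmb7 was not among the genes matched.
Psmb5 at chr14:54617946-54618245, minus strand: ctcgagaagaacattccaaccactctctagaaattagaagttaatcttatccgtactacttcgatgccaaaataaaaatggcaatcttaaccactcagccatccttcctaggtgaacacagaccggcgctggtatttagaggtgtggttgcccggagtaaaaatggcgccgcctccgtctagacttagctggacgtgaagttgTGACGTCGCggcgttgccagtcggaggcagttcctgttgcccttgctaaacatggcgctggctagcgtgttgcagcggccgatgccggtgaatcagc
Psmb6 at chr11:70525107-70525406, plus strand: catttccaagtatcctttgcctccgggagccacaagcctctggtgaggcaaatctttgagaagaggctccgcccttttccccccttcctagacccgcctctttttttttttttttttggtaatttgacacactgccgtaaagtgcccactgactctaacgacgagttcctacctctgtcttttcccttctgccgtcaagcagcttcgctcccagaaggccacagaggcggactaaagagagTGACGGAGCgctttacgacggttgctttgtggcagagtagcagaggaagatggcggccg
Psmb8 at chr17:34197945-34198244, plus strand: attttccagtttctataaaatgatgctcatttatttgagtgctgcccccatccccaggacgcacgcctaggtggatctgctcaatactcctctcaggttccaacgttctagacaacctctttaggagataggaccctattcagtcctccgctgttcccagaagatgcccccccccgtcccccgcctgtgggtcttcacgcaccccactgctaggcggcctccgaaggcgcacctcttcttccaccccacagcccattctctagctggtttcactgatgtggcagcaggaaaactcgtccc
Psmb9 at chr17:34187281-34187580, minus strand: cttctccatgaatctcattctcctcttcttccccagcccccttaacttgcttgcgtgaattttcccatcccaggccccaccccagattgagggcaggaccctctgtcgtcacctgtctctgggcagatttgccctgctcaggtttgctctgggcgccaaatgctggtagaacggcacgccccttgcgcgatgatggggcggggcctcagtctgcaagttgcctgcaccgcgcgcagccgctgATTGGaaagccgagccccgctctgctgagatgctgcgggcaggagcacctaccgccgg
Psmb10 at chr8:105938343-105938642, minus strand: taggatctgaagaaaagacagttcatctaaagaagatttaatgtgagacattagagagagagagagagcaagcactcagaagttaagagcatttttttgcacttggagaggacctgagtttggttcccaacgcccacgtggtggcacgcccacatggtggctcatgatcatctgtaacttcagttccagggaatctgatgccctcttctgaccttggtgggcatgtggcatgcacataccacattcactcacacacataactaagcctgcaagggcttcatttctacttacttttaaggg
The promoters of Psmb5 and Psmb6 each hold 1 match to TGACNNNGC, at positions -47 and -9 from the gene start. Psmb9 holds 1 CCAAT, and 275 of its bases are also in the promoter of Tap1, the peptide transporter gene that runs the other way. The GC box CCGCCC was also searched on both strands and is not in capitals. It is in the windows of Psmb6 and Psmb9, and those of Psmb8 and Psmb10 hold none of the 4 motifs. Over the 36 proteasome genes with a promoter in the table, TGACNNNGC occurred in 6 (16.7%). It was in 12.4% of all 32851 promoters and 15.02% of those of tested genes. Among the 36 it was in 3 of 18 called and 3 of 18 other genes. CCAAT occurred in 14 of the 36 (38.9%), against 37.4% of all promoters and 39.2% of those of tested genes. It was in 7 of 18 called and 7 of 18 other genes. The interferon response type occurred in 4 of the 36 (11.1%), against 3.44% of all promoters and 2.77% of those of tested genes. These were the promoters of Psmd4, Psmd9, Psmb3 and Psme1, all called. The GC box occurred in 22 of the 36 (61.1%), against 35.7% of all promoters and 66.7% of those of tested genes, and in 9 of 18 called and 13 of 18 other genes. A match is a description of the sequence only.

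The cap ATPases form the ring that unfolds the substrate. Of the 6 genes 5 were called, all higher (median log2 fold change 1.696). Psmc3 had 1126, 357, 778 and 344 CPM in Neat1 null libraries, against 253, 163, 90.6 and 84.3 CPM in wild-type libraries, with no overlap (2.14, SE 0.51, adjusted p = 0.01902, edgeR). Psmc6 had 241, 94.5, 36.9 and 65.5 CPM in Neat1 null libraries, against 138, 36.4, 83.1 and 66.4 CPM in wild-type libraries. The lowest Neat1 null library was the third and the groups overlapped (0.43, SE 0.53, adjusted p = 0.575). Psmc1, Psmc2, Psmc4 and Psmc5 had log2 fold changes of 1.57, 1.504, 1.82 and 2.204 (adjusted p = 0.0426, 0.0354, 0.0232 and 0.0235). When Neat1 null library 1 was left out the calls of Psmc1 (0.85, adjusted p = 0.117), Psmc2 (1.16, 0.0707) and Psmc5 (1.39, 0.0526) ended, and without wild-type library 2 those of Psmc1 (0.0723) and Psmc2 (0.0529). All 5 were lost when Neat1 null library 3 was left out (adjusted p = 0.0646 to 0.0821), and likewise for wild-type library 3 (0.0718 to 0.132) and wild-type library 4 (0.0717 to 0.137).

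Among the 3 non-ATPase genes of the cap base 1 rose. Psmd4, a ubiquitin receptor, had 2347, 344, 600.4 and 342 CPM in Neat1 null libraries, against 244, 246, 151 and 174 CPM in wild-type libraries (2.16, SE 0.59, adjusted p = 0.0264, edgeR). The groups did not overlap, and with Neat1 null library 1 left out it had 1.07 (adjusted p = 0.0605). The scaffold gene Psmd1 had 451, 449, 265 and 353 CPM in Neat1 null libraries, against 386, 284, 156 and 155 CPM in wild-type libraries, which overlap (0.63, SE 0.402, adjusted p = 0.267). Psmd2, the other scaffold, had 0.92 (adjusted p = 0.1254).

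In the lid, which holds the enzyme that removes ubiquitin, 3 of 8 genes were called, all higher (median 1.34). Psmd13 had 806, 282, 758 and 228 CPM in Neat1 null libraries, against 139, 144, 64.9 and 70.5 CPM in wild-type libraries, with no overlap (2.31, SE 0.497, adjusted p = 0.0181, edgeR). Psmd11, the lid gene with the largest p, had 179.9, 171, 106 and 163 CPM in Neat1 null libraries, against 148, 144, 109.6 and 106 CPM in wild-type libraries (0.28, SE 0.33, adjusted p = 0.559). Its groups overlapped, with Neat1 null library 3 the lowest of all 8 libraries. Psmd8 and Psmd6 also rose (1.57, SE 0.38, adjusted p = 0.0198, and 1.43, SE 0.48, adjusted p = 0.0498). Psmd6 had 0.900 without Neat1 null library 1 (adjusted p = 0.132) and 1.31 without wild-type library 2 (0.105), and its call also ended with upper-quartile size factors (0.0544) or a filter of 1 CPM in 4 libraries (0.0511). Psmd3 and Psmd7 had 1.31 and 1.38 and missed the threshold (adjusted p = 0.0516 and 0.0615). Psmd12 and the deubiquitinating enzyme gene Psmd14 had 0.64 and 0.57 (adjusted p = 0.293 and 0.223).

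Of the 3 chaperones that help to build the cap, Psmd9 rose, while Psmd5 and Psmd10 had 0.62 and 0.48 (adjusted p = 0.195 and 0.33997, edgeR). Psmd9 had 301, 93.9, 184 and 112 CPM in Neat1 null libraries, against 70.4, 52.6, 29.9 and 33.03 CPM in wild-type libraries, with no overlap (1.89, SE 0.44, adjusted p = 0.0187). It shares 1849 exon bases with Gm26745 on the other strand, and the strand setting of the counting is not given in the sources used here. Psmd10, also called gankyrin, had 48.7, 34.5, 24.8 and 24.1 CPM in Neat1 null libraries, against 33.03, 18.9, 22.9 and 19.99 CPM in wild-type libraries, which overlap. The 5 calls in the base, lid and chaperones were lost when Neat1 null library 3 was left out (adjusted p = 0.0646 to 0.0741), and likewise for wild-type library 3 (0.0687 to 0.143) and wild-type library 4 (0.0684 to 0.157).

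Of the 4 activator genes 2 rose. These were Psme1 and Psme2, whose products form a ring together and are induced by interferon gamma. Psme1 had 289, 75.98, 199 and 80.7 CPM in Neat1 null libraries, against 73.3, 58.5, 47.9 and 42.5 CPM in wild-type libraries (1.54, SE 0.45, adjusted p = 0.0314, edgeR). Psme2 had 335, 43.6, 97.9 and 39.03 CPM in Neat1 null libraries, against 50.5, 26.4, 25.01 and 19.9 CPM in wild-type libraries (2.08, SE 0.62, adjusted p = 0.0351). In Psme1 the groups were separated by a narrow gap, and in Psme2 Neat1 null libraries 2 and 4 lay below wild-type library 1. With Neat1 null library 1 left out they had 1.09 and 0.98 (adjusted p = 0.0732 and 0.111). Both calls also ended without Neat1 null library 3 (0.0773 to 0.0807), wild-type library 2 (0.0555 to 0.0722), wild-type library 3 (0.0988 to 0.111) or wild-type library 4 (0.109 to 0.118). Psme2 shares 28.3% of its 50-base stretches with Psme2b and Gm7928. Psme3, the nuclear activator, had 161, 300.3, 233 and 305 CPM in Neat1 null libraries, against 268, 209.9, 101 and 108 CPM in wild-type libraries. Neat1 null library 1 was the lowest of its group here (0.54, SE 0.405, adjusted p = 0.344). Psme4, which encodes a large single-chain activator, had 129, 168, 47.2 and 100.02 CPM in Neat1 null libraries, against 184, 123, 168 and 173 CPM in wild-type libraries. The groups overlapped (-0.54, SE 0.39, adjusted p = 0.328), and the gene has the longest exon sequence of the annotated members, 8382 bases.

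Seen by library, the proteasome genes ran from wild-type libraries 3 and 4 at the low end to Neat1 null library 1 at the high end. The 43 genes together had 27167, 9659, 15446 and 9339.7 CPM in Neat1 null libraries, against 7507, 5820.5, 3831 and 3854 CPM in wild-type libraries. Neat1 null libraries 2 and 4 lay nearer to wild-type library 1 than to Neat1 null library 1. As a share of all counts, with no scaling factor, they took 1.54, 1.02, 1.12 and 0.948% in Neat1 null libraries, against 0.809, 0.711, 0.507 and 0.5002% in wild-type libraries. Neat1 null library 1 was the highest of all libraries in 32 of the 41 tested genes, and wild-type library 3 or 4 the lowest in 35. Within the wild-type group, library 1 was the highest in 35 genes. In 26 of the 41 genes, and in 20 of the 22 called ones, Neat1 null libraries 2 and 4 both stood above wild-type library 1. The 22 were called from these same values. These counts by library were not taken over all genes tested, so they have no background beside them. Neat1 null libraries 1 and 3 had the smallest scaling factors, the largest ribosomal protein shares and the most negative length slopes, and the part of these in the result was not tested.

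**Figure D4:**
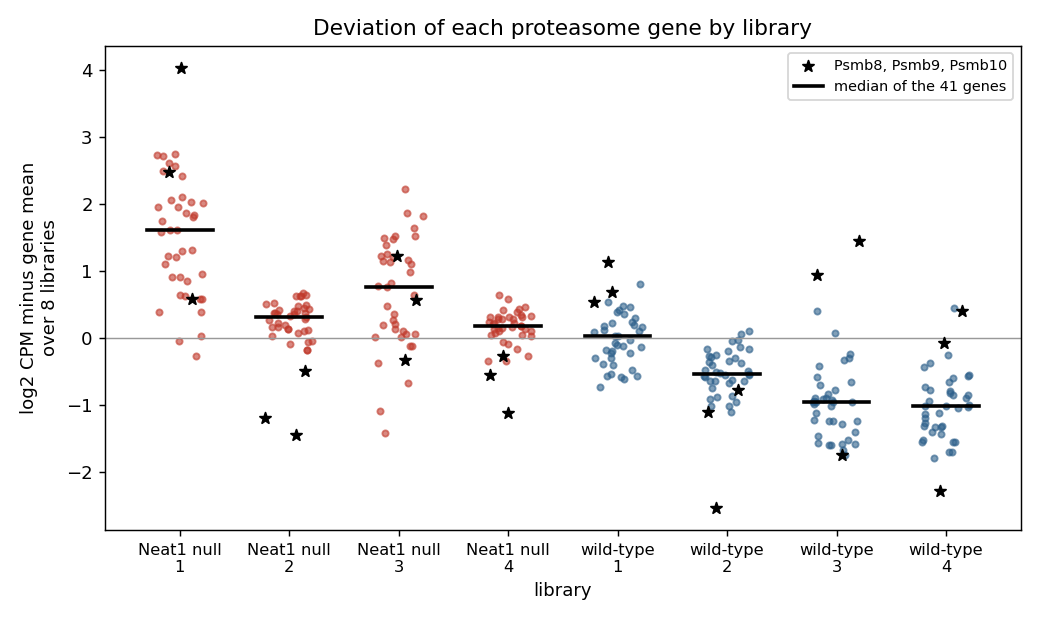
Log2 CPM of each of the 41 tested genes minus its mean over the 8 libraries, by library, with the median marked. Medians are 1.602, 0.31, 0.75 and 0.17 in Neat1 null libraries 1 to 4, against 0.022, -0.54, -0.97 and -1.03 in wild-type libraries 1 to 4.

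Gene length and base composition moved with the fold changes. The 41 genes had a median exon length of 2820 bases, against 4462 bases over 13213 tested genes with a length. Spearman's rho between exon length and log2 fold change was -0.45 over the 41 genes and -0.41 over the 13213 genes. Between GC content and log2 fold change it was 0.57 and 0.31. Genes share libraries and are not independent replicates, so these are descriptions. After each library was corrected for length and GC content, 15 of the 42 tested genes were called higher and 0 lower (edgeR). At an unadjusted p under 0.05, 0 were lower. Of all genes 7.64% were called higher and 4.87% lower in this fit. The median of the 41 was then 1.31. Of the 22 calls 13 remained, and Psma2 and Psmd5 were added. Those lost were Psma6, Psmb2, Psmc1, Psmc4, Psmc5, Psmd4, Psmd6, Psme1 and Psme2 (adjusted p = 0.0522 to 0.118). With library totals in place of scaling factors, 11 of 42 genes were called higher and 0 lower (1 lower at an unadjusted p under 0.05), where 2.92% of all genes were called higher and 16.1% lower. The calls of Psma3, Psma6, Psmb1, Psmb2, Psmb7, Psmc1, Psmc2, Psmd6, Psmd8, Psme1 and Psme2 were lost (adjusted p = 0.0534 to 0.172). The median of the 41 was 0.79 and that of all genes -0.59.

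**Figure D5:**
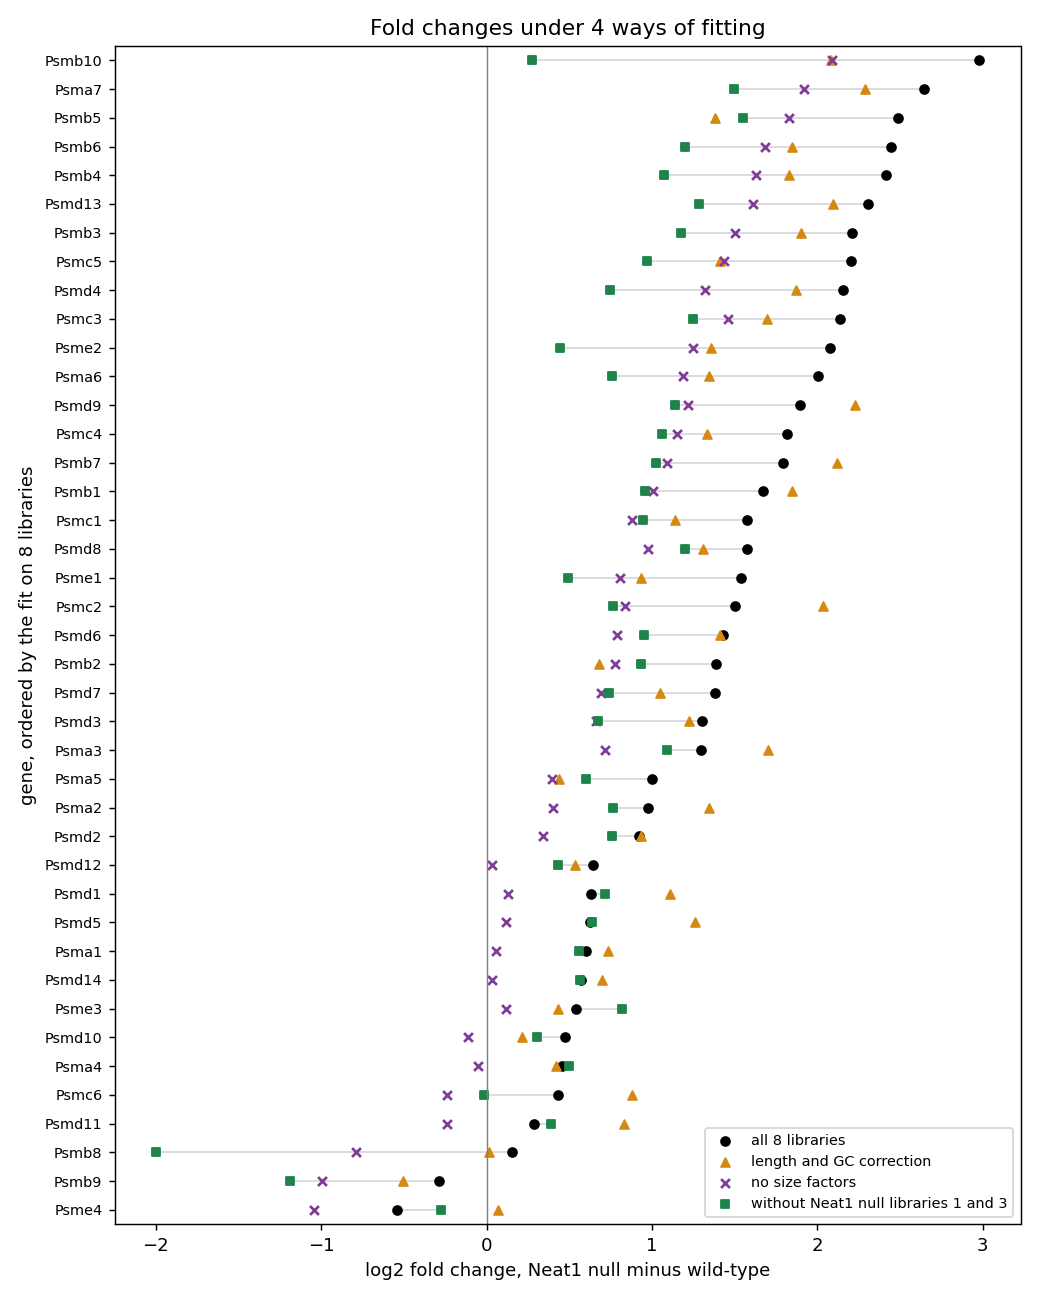
Log2 fold change (Neat1 null minus wild-type) of the 41 genes with all 8 libraries, after correction for length and GC content, with library totals only and without Neat1 null libraries 1 and 3. Psmb8 had -1.997 without these 2 libraries and 0.15 with all 8.

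The chaperones that build the core were also higher. Of the 6 listed assembly and inhibitor genes 4 were called, all higher (edgeR; median log2 fold change 1.77). Pomp, the maturation factor of the core, had 312 ± 274 CPM in Neat1 null and 82.7 ± 26.4 CPM in wild-type libraries (1.91, SE 0.51, adjusted p = 0.0242). Psmg3, Psmg1 and Psmg2, which help to assemble the alpha ring, had 2.63, 1.99 and 1.62, and Psmg4 had 1.098 (adjusted p = 0.0652). The inhibitor gene Psmf1 had 67.9 ± 30.02 CPM in Neat1 null and 36.1 ± 10.4 CPM in wild-type libraries and did not pass (0.91, SE 0.37, adjusted p = 0.0945). With Neat1 null library 1 left out Pomp and Psmg2 had 1.09 and 0.85 (adjusted p = 0.0532 and 0.0901). The length and GC correction ended the calls of Psmg1 (0.0543) and Psmg2 (0.0629), and the use of no size factors those of Pomp (0.0568) and Psmg2 (0.133). All 4 calls were lost when Neat1 null library 3 was left out (adjusted p = 0.0646 to 0.0701), and likewise for wild-type library 3 (0.0671 to 0.0993) and wild-type library 4 (0.0684 to 0.0979).

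Of 6 partners with other names 1 rose. This was Adrm1, the gene of another ubiquitin receptor of the cap (1.65, SE 0.46, adjusted p = 0.0271, edgeR). Shfm1 of the lid had 1.797 (adjusted p = 0.0818), and the deubiquitinase genes Uchl5 and Usp14 had 0.44 and 0.25. The ubiquitin genes Rps27a and Ubb had 1.76 and 1.04 and did not pass (adjusted p = 0.113 and 0.116). Of 10 shuttle and unfoldase genes 0 were called by edgeR (1 in each direction at an unadjusted p under 0.05, 0 by DESeq2). The unfoldase gene Vcp had 0.804 (adjusted p = 0.189). With upper-quartile size factors edgeR called 1 of the 10 shuttle and unfoldase genes lower (adjusted p = 0.0496). The call of Adrm1 ended without Neat1 null library 1 (0.0557) or 3 (0.0733) and without wild-type library 2 (0.0509), 3 (0.0959) or 4 (0.101), and with no size factors (0.0781).

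Among the listed regulators of proteasome genes 1 of 9 was called higher and 0 lower (edgeR; 1 lower at an unadjusted p under 0.05, and 1 lower by DESeq2, Nfe2l2). Their median log2 fold change was -0.195, against 0.0051 without Neat1 null library 3 and 0.069 after a correction for gene length and GC content. With upper-quartile size factors edgeR called 0 of them higher and 1 lower (adjusted p = 0.0385). Nfe2l1, which encodes the transcription factor that raises proteasome genes when the proteasome is inhibited, had 259, 248, 128 and 268 CPM in Neat1 null libraries, against 309, 377, 311 and 282 CPM in wild-type libraries. The groups did not overlap, with Neat1 null below, but the difference did not pass (-0.503, SE 0.36, adjusted p = 0.323). Nfe2l2, the related factor of the oxidative stress response, had 45.5 ± 19.5 CPM in Neat1 null and 96.3 ± 21.2 CPM in wild-type libraries and did not pass either (-1.08, SE 0.37, adjusted p = 0.0562). Its groups did not overlap, again with Neat1 null below, a pattern that 11% of all genes tested showed. Nfyc, a subunit of the factor that binds CCAAT, rose (1.24, SE 0.397, adjusted p = 0.0439). Its call ended without Neat1 null library 1 (0.0558), 3 (0.1003) or 4 (0.0649) and without wild-type library 2 (0.08003), 3 (0.147) or 4 (0.143). It also ended with upper-quartile size factors (0.0511), after the length and GC correction (0.0588) and with no size factors (0.207).

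Among 14 antigen processing genes, the partners of the immunoproteasome, 0 were called higher and 1 lower (edgeR; 1 higher at an unadjusted p under 0.05, and 1 higher by DESeq2, Calr). Their median log2 fold change was -0.34, with 5 of 14 positive, and 0.15, with 8 of 14 positive, when wild-type library 1 was left out. The one that fell was Nlrc5, the activator of class I histocompatibility genes, with 3.77, 2.67, 1.59 and 4.55 CPM in Neat1 null libraries, against 22.3, 3.42, 25.6 and 11.7 CPM in wild-type libraries (-2.33, SE 0.57, adjusted p = 0.02004). Wild-type library 2 lay among the Neat1 null values. The call ended without Neat1 null library 3 (0.0706), wild-type library 3 (0.0752) or wild-type library 4 (0.0684). Tap1 had 42.04 ± 15.5 CPM in Neat1 null and 46.2 ± 15.99 CPM in wild-type libraries (-0.14, SE 0.37, adjusted p = 0.8096), with 0.14 when wild-type library 1 was left out.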

How the data were processed

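Counts per gene symbol were deposited by the authors for each of the 8 libraries. Per the labels' protocols, total RNA went into a stranded TruSeq library. The submitters' processing notes name CASAVA 1.8, STAR, DESeq2 and mm10. The counting tool, its strand setting and its annotation are not given in the sources used here. Reads outside genes (5.48% to 11.04% in Neat1 null and 9.83% to 15.7% in wild-type libraries) and ambiguous reads (1.34% to 1.76% in Neat1 null and 1.09% to 1.22% in wild-type libraries) entered neither the library sizes nor the tests. Libraries of 1 genotype differed beyond sampling noise (chi-square over its degrees of freedom 62.1 or more).

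Genes were filtered with filterByExpr (minimum count 10), scaled with TMM and tested with the quasi-likelihood F test of edgeR 4.0.16 (R 4.3.3, robust, 2-sided, genotype as the only term), with Benjamini-Hochberg adjustment over 13316 genes. The SE is the absolute log2 fold change over the square root of F. CPM used TMM factors. Ratios used log2(CPM + 1) and exact permutation over 70 assignments. The fit was tested on data simulated with the estimated spread of each gene. It recovered 4% of 2-fold, 64% of 4-fold, 96% of 8-fold and 98% of 16-fold changes (50 genes each). Of its 140 calls 6.43% were false. Changes near 2-fold were thus mostly missed in the simulation.

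Exon lengths, GC content and shared sequence came from GENCODE M21 (GRCm38), where 21777 symbols had a direct match, 1278 matched by synonym and 365 had none. An exon length is that of all annotated exons of a gene joined. Promoters came from RefSeq (GRCm38.p6). Every member is named, and per-library values are given for the catalytic, inducible and activator genes and, in each other role, for those with the smallest and largest p. Of other lists, the called genes and a few fixed ones are named, besides Calr, Cd68, Col1a1, Col1a2, Col3a1, Emcn, Kdr, Krt18, Pdgfra, Rps27a, S100a4, Tap1, Ubb, Uchl5, Usp14 and Vim. Some genes of the ubiquitin list are not reported here. The members, lists and rules were chosen with earlier results of these data known. Alternatives were other size factors, filters, DESeq2 1.42.0, each library left out, Neat1 null libraries 1 and 3 left out, the replicate number as a block, a length and GC correction (splines with 5 degrees of freedom) and no size factors.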

Additional observations from a re-analysis of the deposited data

Results flagged for a closer look

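In 11 of 84 groups of 4 libraries, 1 library stood apart from the other three by Dixon's test for a single outlying value, which chance gives in about 1 of 20 groups. The groups share libraries, so these are not independent. Neat1 null library 1 was such a high value for 8 genes. It had 1229 CPM of Psma6 (190 to 211 in the other Neat1 null libraries), 22.7 CPM of Psmb8 (1.44 to 3.17), 402 CPM of Psmb10 (17.4 to 57.2), 1023 CPM of Psmc1 (242 to 309), 2347 CPM of Psmd4 (342 to 600), 332 CPM of Psmd6 (108 to 133), 752 CPM of Psmd7 (208 to 244) and 55.7 CPM of Psmc3ip (28.4 to 32.3). Neat1 null library 3 had 947 CPM of Psmd8, against 452 to 523 CPM in the other Neat1 null libraries. Wild-type library 1 had 221 CPM of Psma3 and 121 CPM of Psmd6, against 92.0 to 104 and 36.7 to 48.9 CPM in the other wild-type libraries.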

How the results depend on the processing

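The number of proteasome genes called higher was 22 with all libraries and 21 to 27 with other size factors or filters, DESeq2 or the replicate block. It was 15 after the length and GC correction and 11 with no size factors, a setting chosen after the data were seen. With 1 library left out it ranged from 0 to 25, and without Neat1 null libraries 1 and 3 it was 0. The number of all genes called was 2356, ranged from 11 to 2965 with 1 library left out and was 7 without Neat1 null libraries 1 and 3. The number of proteasome genes called lower was 0 in every fit run. Of the 22 calls, DESeq2 kept 21 and gave no adjusted p for Psma6. With no size factors 389 of all genes were higher and 2142 lower, with upper-quartile factors 1036 and 1428, and with TMM 1328 and 1028. The median of all genes was -0.59, -0.24 and -0.060 in these fits.

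Genes that changed sign were not called. With no size factors these were Psma4 (-0.051), Psmb8 (-0.79), Psmc6 (-0.24), Psmd11 (-0.24), Psmd10 (-0.11), Psmc3ip (-0.025), Uchl5 (-0.12), Usp14 (-0.21) and Vim (-0.18). Without Neat1 null libraries 1 and 3 they were Psmb8 (-1.997), Psmc6 (-0.014), Shfm1 (-0.033) and Rps27a (-0.069). With 1 library left out Psmb8 ran from -1.59 to 0.54, Psmb9 from -0.53 to 0.024, Psmc6 from -0.29 to 0.83, Tap1 from -0.34 to 0.14 and Rps27a from -0.15 to 2.096. Psmb8 also had -0.101 with upper-quartile factors and -0.22 with the replicate block, and Psme4 0.069 after the length and GC correction. The difference in the log2 ratio of Psmb10 to Psmb7 ran from -0.094 to 0.85 with 1 library left out and was -0.43 without Neat1 null libraries 1 and 3. The causes were not tested.

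Libraries of the same replicate number correlated in their deviations from the group means by 0.32, -0.26, -0.014 and 0.11, and not every library correlated best with its own number, so the numbers were not taken to pair the samples. With the replicate block 24 proteasome genes were called higher, all 22 and Psmb10 and Psmd7. For the differences in the 3 ratios (-2.55, -2.39 and 0.47) the block leaves the value as it is by construction, so it is no check of them.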
